A study of Mus musculus with 10 samples.

Results

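The Slc26 genes encode membrane exchangers of sulfate, chloride, bicarbonate, iodide and oxalate, and 9 of them are described here in bone marrow (BM) that had been rebuilt from fetal blood stem cells. The members were Slc26a1, Slc26a2, Slc26a3, Slc26a4, Slc26a6, Slc26a7, Slc26a8, Slc26a10 and Slc26a11. Each was read from the probe set of the array that lists this gene alone, and each had exactly 1 such probe set, of 35556 probe sets and 19938 named genes in all. The family was chosen by the difference of Slc26a1 between the groups of this same experiment, so the values of Slc26a1 are a description and no test of it is used as support.

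Fetal liver hematopoietic stem cells (HSCs) of CD45.2 C57BL6 embryos were given to lethally irradiated, vitamin D-sufficient CD45.1 C57BL6 recipients. The embryos came from dams fed either a vitamin D-deficient diet, here VD(-), or a vitamin D-sufficient diet, here VD(+), so that both groups of recipients had sufficient vitamin D themselves and differed in the diet of the donor's dam. Total RNA of recipient BM was read on 10 arrays, 5 for each group of recipients. Each group held 3 single samples, called replicates 1 to 3, and 2 pooled samples. The labels give mice of 8 weeks and of both sexes, and the study's methods describe donor cells of both sexes mixed together. By those methods the recipients were 8 weeks old at transplantation. The marrow was taken weeks later, so 8 weeks cannot be their age at sampling. The arrays go against a mixture in every sample: 7 of 10, all 5 VD(+) arrays among them, carried no Y-linked signal, and the values without the 3 that did are given below. Which marrow cells came from donor or host was not measured on these arrays. The sample labels also speak of BM macrophages, and the sources differ on the time after transplantation at which the marrow was taken. No source says whether RNA of the single samples also went into the pools, so a p-value here sets a difference against the variation among these arrays and may understate that among mice.

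Cells take up inorganic sulfate through transporters of the Slc26 and Slc13 families. Inside the cell, sulfate is joined to ATP to make PAPS, the universal sulfate donor, and Golgi sulfotransferases then pass sulfate from PAPS to the chains of proteoglycans and to other products. Slc26 proteins share a transmembrane transport part and a cytoplasmic STAS domain, and most exchange 1 anion for another across a plasma membrane. In mouse and human tissue, most members are known from epithelia and cartilage rather than from blood cells.

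Slc26a1 was the member with the higher values in VD(-) HSC recipients, and its promoters are shown for that reason. The RefSeq promoter table (assembly GRCm38.p6) lists 2 start sites for Slc26a1 on the minus strand of chromosome 5, and each sequence below runs 5′ to 3′ over 250 bases before the start and 50 bases after it. The first window is chr5:108675316-108675615 and the second is chr5:108674747-108675046. Capitals mark the matches to the motifs named after the sequences.
Slc26a1 promoter 1: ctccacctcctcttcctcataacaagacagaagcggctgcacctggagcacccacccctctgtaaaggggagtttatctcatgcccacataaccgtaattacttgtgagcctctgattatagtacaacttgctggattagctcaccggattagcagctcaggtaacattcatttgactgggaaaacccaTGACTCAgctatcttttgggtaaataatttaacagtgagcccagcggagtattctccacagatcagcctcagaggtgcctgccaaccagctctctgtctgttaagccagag
Slc26a1 promoter 2: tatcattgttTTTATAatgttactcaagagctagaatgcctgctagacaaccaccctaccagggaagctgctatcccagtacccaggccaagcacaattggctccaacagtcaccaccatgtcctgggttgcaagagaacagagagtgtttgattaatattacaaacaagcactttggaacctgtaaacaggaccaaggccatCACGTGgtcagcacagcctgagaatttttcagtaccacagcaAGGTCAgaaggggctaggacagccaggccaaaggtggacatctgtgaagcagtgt

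Short motifs were searched on both strands of these windows, none overlapping another match, and they were chosen with the sequences in view. The vitamin D receptor binds, with its partner RXR, to pairs of hexamers such as AGGTCA that are spaced by 3 bases. In promoter 2, AGGTCA lay with its first base at position -5 from the start site, and 16.3% of all 32851 promoters of the same length held this hexamer. The full pair, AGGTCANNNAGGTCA, was in neither Slc26a1 window and in 0.00609% of all promoters. The E-box CACGTG, at position -47 of promoter 2, was in 7.15% of promoters, and TGACTCA, the binding motif of AP-1, at position -61 of promoter 1, was in 5.2%. The capitals near the left end of promoter 2 are TATAAA on the opposite strand at position -240, and 13.6% of promoters held that motif. These matches are a description of letters and not of bound sites. Over the 7 promoters of 6 members that were used here, 2 held AGGTCA, 1 held CACGTG, 1 held TGACTCA, 4 held TATAAA and 0 held the full pair. Slc26a3 held AGGTCA at -133 and TATAAA at -30, and Slc26a4 held TATAAA at -31. The GC content was 48.3% in promoter 1 and 47.7% in promoter 2 of Slc26a1, against a median of 52.7% over all promoters.

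Slc26a1, also called Sat1, exchanges sulfate for oxalate or bicarbonate and is best known from the liver and kidney. Its log2 values in VD(-) HSC recipients were 5.85, 5.86 and 5.76 in the single samples and 6.08 and 6.08 in the pools. In VD(+) HSC recipients they were 5.08, 4.82 and 4.75 in the single samples and 4.89 and 4.99 in the pools. Every VD(-) array lay above every VD(+) array, with 0.68 between the lowest VD(-) and the highest VD(+) value. VD(-) HSC recipients averaged 5.93 ± 0.15 and VD(+) HSC recipients averaged 4.91 ± 0.13 (SD, n = 5 per group). The log2 fold change was 1.02 (SE 0.091, 95% interval 0.82 to 1.22), or 2.03-fold. The difference was 0.94 over the single samples and 1.15 over the pools. In a bulk sample such as this, more cells of a type and more RNA per cell cannot be told apart.

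**Figure D1:**
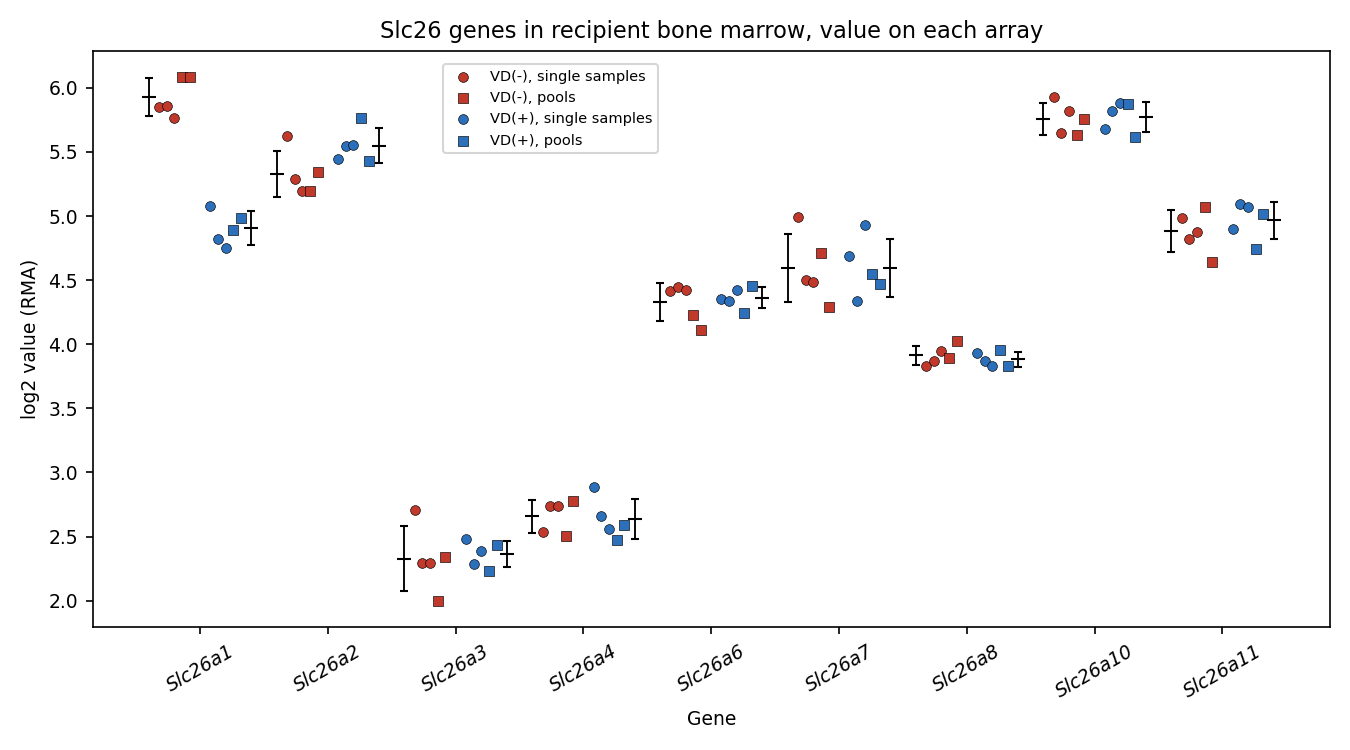
Value of each Slc26 gene on each of the 10 arrays on the log2 scale, with VD(-) HSC recipients in red and VD(+) HSC recipients in blue, circles for single samples and squares for pools, and bars for the mean and SD of the 5 arrays. The 5 VD(-) values of Slc26a1 (5.76 to 6.08) lie above its 5 VD(+) values (4.75 to 5.08), while the groups overlap for the other 8 genes.

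Slc26a2 is the sulfate transporter of cartilage, and loss of its human counterpart causes diastrophic dysplasia. Its log2 values were 5.62, 5.29 and 5.19 in the single samples and 5.20 and 5.34 in the pools of VD(-) HSC recipients. In VD(+) HSC recipients the single samples had 5.44, 5.55 and 5.56 and the pools had 5.77 and 5.43. The groups overlapped: VD(-) replicate 1 lay above all but 1 of the VD(+) arrays, and the other 4 VD(-) arrays lay below all 5 VD(+) arrays. VD(-) HSC recipients averaged 5.33 ± 0.18 and VD(+) HSC recipients averaged 5.55 ± 0.13 (SD, n = 5 per group). The log2 fold change was -0.22 (SE 0.10, 95% interval -0.44 to 0.00041) and did not pass the test (adjusted p = 0.706, limma over all probe sets). The exact two-sided permutation test of this gene gave p = 0.0556, where the smallest p that 5 arrays against 5 allow is 0.00794.

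Slc26a11 carries sulfate without sodium and has been placed at the plasma membrane and in lysosomes. It had log2 values of 4.99, 4.82 and 4.88 in the single samples and 5.07 and 4.64 in the pools of VD(-) HSC recipients. The VD(+) values were 4.90, 5.10 and 5.07 in the single samples and 4.74 and 5.02 in the pools. The ranges of the groups overlapped nearly throughout, and the log2 fold change was -0.086 (SE 0.099, 95% interval -0.30 to 0.13, adjusted p = 0.889, limma). Of the 3 members known mainly as sulfate transporters, Slc26a1 alone was higher in VD(-) on every array, and the other two had means below those of VD(+).

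Slc26a6 exchanges chloride for oxalate or bicarbonate in gut and kidney. Its log2 values were 4.42, 4.45, 4.43, 4.23 and 4.11 in VD(-) HSC recipients, replicates 1 to 3 first and then both pools. The VD(+) values, in the same order of samples, were 4.35, 4.34, 4.42, 4.25 and 4.46. Its single samples and pools lay on opposite sides, with a difference of 0.060 over the single samples and -0.18 over the pools, and the log2 fold change over all arrays was -0.036 (SE 0.083, 95% interval -0.22 to 0.15). Slc26a7, an anion transporter of stomach, kidney and thyroid, had VD(-) values of 4.99, 4.50, 4.49, 4.71 and 4.29 in that order. Its VD(+) values were 4.69, 4.33, 4.93, 4.55 and 4.47. This was the member with the widest spread within VD(+), and its log2 fold change of 0.0021 had an SE of 0.14 and a 95% interval of -0.32 to 0.32.

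Slc26a3, the chloride and bicarbonate exchanger of the colon, and Slc26a4, or pendrin, the iodide and chloride transporter of thyroid and inner ear, are neighbours on chromosome 12. Slc26a3 ranged from 2.00 to 2.71 in VD(-) HSC recipients and from 2.23 to 2.48 in VD(+) HSC recipients, with a log2 fold change of -0.036 (SE 0.12, 95% interval -0.30 to 0.22). Slc26a4 ranged from 2.50 to 2.78 in VD(-) and from 2.47 to 2.88 in VD(+), with a log2 fold change of 0.025 (SE 0.093, 95% interval -0.18 to 0.23). These are values at the low end of the scale. The files give no detection calls, and 1035 probe sets of olfactory receptor genes, which marrow is not known to use, had 5th and 95th percentiles of 1.87 and 3.97. By their mean over all arrays, Slc26a3, Slc26a4 and Slc26a8 lay within that range, and the other 6 members lay above it.

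Slc26a8 belongs to the testis, where sperm need it to move. Its log2 values were 3.83, 3.87, 3.95, 3.89 and 4.03 in VD(-) HSC recipients and 3.93, 3.87, 3.83, 3.95 and 3.83 in VD(+) HSC recipients, with a log2 fold change of 0.031 (SE 0.063, 95% interval -0.11 to 0.17). Slc26a10, whose human counterpart is a pseudogene, had 5.93, 5.65, 5.82, 5.63 and 5.76 in VD(-) and 5.68, 5.82, 5.88, 5.87 and 5.62 in VD(+), in the same order of samples. The ranges of Slc26a10 nearly coincided, and its log2 fold change was -0.017 (SE 0.083, 95% interval -0.20 to 0.17). VD(-) replicate 1 had the highest VD(-) value for Slc26a2, Slc26a3, Slc26a7 and Slc26a10. It was also the array with the highest median over all probe sets, 4.80, against 4.74 on the lowest array.

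Set side by side, 4 members had a mean above 0 for VD(-) less VD(+) and 5 had a mean below 0, and the median of the 9 log2 fold changes was -0.017, against 0.0016 over the 21789 probe sets with 1 gene. Without Slc26a1 the median of the members was -0.026. At an adjusted p under 0.05 in limma, 1 of 9 members was called, Slc26a1, while 0.118% of all probe sets were called (42 of 35556). At a nominal p under 0.05, the same 1 member was called, while 7.09% of probe sets were (2520 of 35556). The arrays of the groups did not overlap for 1 member, against 1.55% of all probe sets (552 of 35556). Since this contrast led to the choice of the family, nothing is read from these shares.

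**Figure D2:**
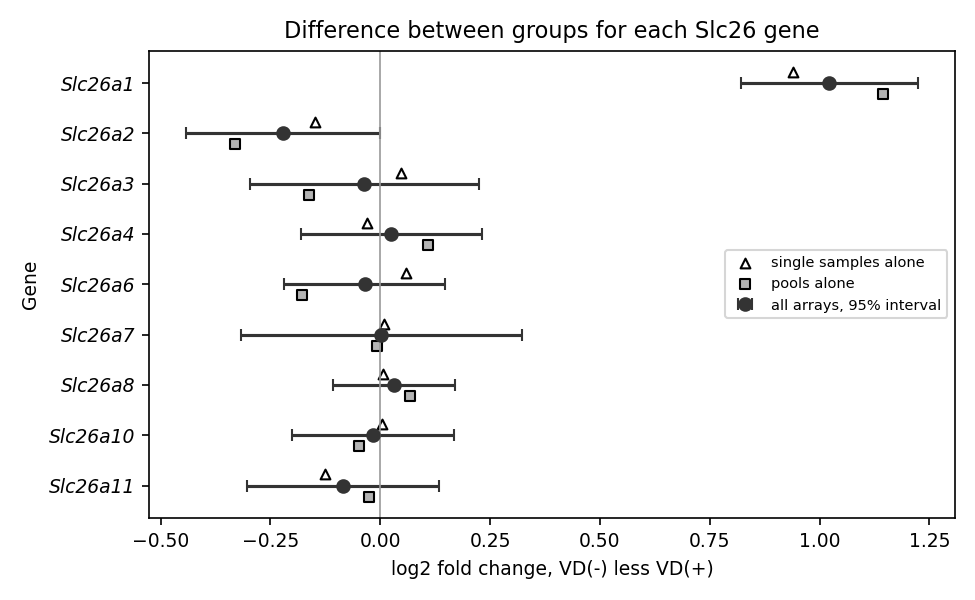
Log2 fold change of each Slc26 gene, VD(-) less VD(+), with the 95% interval from limma over all 10 arrays (filled circles and bars), over the single samples alone (triangles) and over the pools alone (squares). Slc26a1 stands at 1.02, and the other 8 genes lie between -0.22 and 0.031 with intervals that reach or cross 0.

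The single samples and the pools were compared for each member by an interaction term in limma. The unadjusted p lay between 0.132 and 0.958 over the 9 members (limma), and none passed the adjusted test. For Slc26a1 the pools showed a difference that was larger by 0.21 (SE 0.17), which is within the error of that comparison. The members of the family outside the list with a probe set of their own were Slc26a5, the motor protein prestin of the inner ear, at a log2 fold change of 0.029 (SE 0.082), and Slc26a9, a chloride transporter of airway and stomach, at 0.024 (SE 0.073).

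Genes that overlap or adjoin a member were set beside it, since the sources do not say whether the labelling kept the strand. Slc26a1 lies on the minus strand and overlaps Idua, which lies on the plus strand and encodes alpha-L-iduronidase, the lysosomal enzyme that degrades heparan and dermatan sulfate. Idua had log2 values of 5.48, 5.49 and 5.73 in the single samples and 5.67 and 5.68 in the pools of VD(-) HSC recipients. In VD(+) HSC recipients it had 5.73, 5.75 and 6.02 in the single samples and 5.85 and 5.93 in the pools. The values of Idua thus lay on the opposite side to those of Slc26a1, and the groups overlapped only at VD(-) replicate 3 and VD(+) replicate 1. Its log2 fold change was -0.24 (SE 0.083, p = 0.0149, adjusted p = 0.579, limma, and exact two-sided permutation p = 0.0159), and it did not pass the adjusted test. Sense and antisense signal cannot be told apart here.

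**Figure D3:**
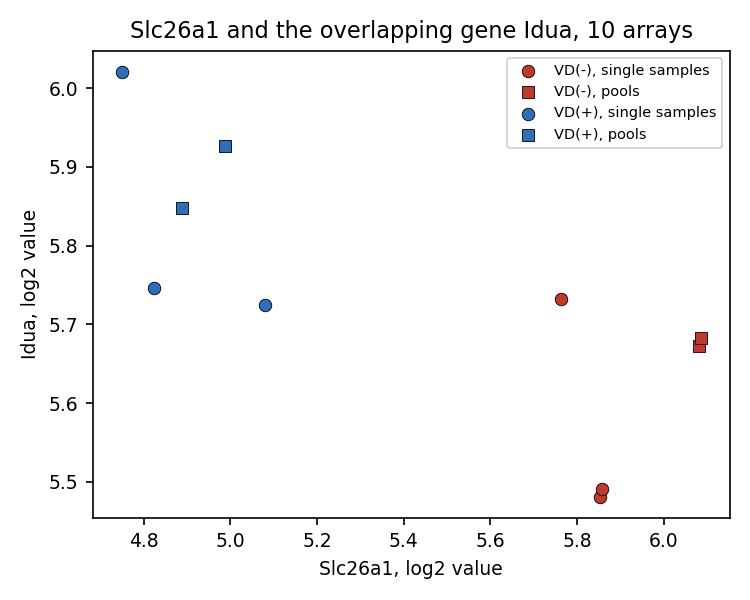
Log2 value of Slc26a1 (horizontal axis) against that of the overlapping gene Idua (vertical axis) on the 10 arrays, with VD(-) HSC recipients in red, VD(+) HSC recipients in blue, circles for single samples and squares for pools. The VD(-) arrays lie at the lower right, at 5.76 or more for Slc26a1 and 5.48 to 5.73 for Idua, and the VD(+) arrays lie at the upper left.

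The further measured genes within 50 kb of Slc26a1 did not pass a nominal p in limma in the same comparison. Dgkq, a diacylglycerol kinase, had a log2 fold change of -0.062 (SE 0.082), Fgfrl1, a decoy-like receptor of fibroblast growth factors, of -0.090 (SE 0.11), and Gak, a kinase of clathrin uncoating, of -0.082 (SE 0.079). Tmem175, a lysosomal potassium channel, leaned to the same side as Slc26a1, at 0.16 (SE 0.087, p = 0.0922, limma, and exact permutation p = 0.0556). Around all 9 members, RefSeq lists 42 genes within 50 kb, of which 29 were measured. Among these 29, 0 were higher and 1, Idua, was lower at a nominal p under 0.05, 0 passed the adjusted test (limma), and the median was -0.040. Over all probe sets, 7.09% were at a nominal p under 0.05 (2520 of 35556), so 1 of 29 is not more than that share.

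Some of the other members also sit close to a neighbour. Slc26a11 overlaps Sgsh, the lysosomal sulfamidase of heparan sulfate degradation, whose log2 fold change was -0.14 (SE 0.10). Slc26a10 overlaps B4galnt1, a ganglioside synthase, at -0.040 (SE 0.11). Slc26a8 lies 69 bases from Mapk14, which encodes the kinase p38alpha, at -0.054 (SE 0.084). Slc26a3 and Slc26a4 lie 45892 bases apart with Cbll1, an E3 ubiquitin ligase, between them at 0.049 (SE 0.063). None of these passed a nominal p in limma.

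The surroundings of the Slc26 genes were taken from 9 lists with 119 measured genes, of which 6 lists (95 genes) cover sulfate after uptake and its making, and 3 lists (24 genes) cover other transporters and partners of Slc26 proteins. Of these, 61 had a log2 fold change above 0, 4 were higher and 1 was lower at a nominal p under 0.05, and 0 passed the adjusted test (limma). Their median was 0.016. The arrays of the groups did not overlap for 2 of the 119, Chst1 and Vcan, against 1.55% of all probe sets (552 of 35556). Among the 21789 probe sets with 1 gene, 882 were higher and 646 lower at that nominal p, and 20 passed the adjusted test. Over all probe sets, 7.09% were at a nominal p under 0.05 (2520 of 35556). The counts of each list below stand against that share.

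The Slc13 transporters carry sulfate together with sodium. Slc13a1, the renal form, lay within the range of the olfactory receptor probe sets at a log2 fold change of 0.081 (SE 0.081), and Slc13a4 was at 0.20 (SE 0.16). Of the 6 measured genes of sulfate activation, 0 passed a nominal p in either direction (limma), and their median was -0.031. Papss1 and Papss2, the PAPS synthases, were at 0.024 (SE 0.078) and -0.036 (SE 0.12), and Slc35b2, which carries PAPS into the Golgi, was at -0.026 (SE 0.16). The genes that make sulfate from cysteine numbered 12. Their median was 0.090, and 0 of them passed a nominal p in limma. Suox, the mitochondrial sulfite oxidase that makes sulfate in the last step, was at 0.054 (SE 0.086).

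The Golgi sulfotransferases numbered 34, of which 1 was higher and 1 lower at a nominal p (limma), and their median was -0.00039. The higher one was Chst1, a keratan sulfate sulfotransferase, with log2 values of 4.95, 4.82, 4.63, 4.80 and 4.74 in VD(-) HSC recipients and 4.56, 4.53, 4.10, 4.52 and 4.60 in VD(+) HSC recipients. Its groups did not overlap, by a margin of 0.032, and the log2 fold change was 0.33 (SE 0.10, adjusted p = 0.542, limma). The exact permutation p of Chst1 was 0.00794, the smallest possible, but Chst1 was no longer at a nominal p with Y-linked signal minus Xist in the fit (the Y-linked covariate), without the arrays with Y-linked signal or over the pools alone. The lower one was Chst3, which puts sulfate on carbon 6 of chondroitin, with 4.65, 4.10, 4.62, 4.86 and 4.99 in VD(-) and 4.98, 5.09, 5.62, 5.50 and 4.96 in VD(+). The groups of Chst3 overlapped at VD(-) pool 2, and its log2 fold change was -0.58 (SE 0.18, adjusted p = 0.542, limma, and exact permutation p = 0.0238). Chst11, the main chondroitin 4-sulfotransferase, was at -0.0998 (SE 0.086), and Chst15, which adds a further sulfate to chondroitin, was at -0.13 (SE 0.078). The 11 measured cytosolic sulfotransferases had a median of -0.0034, and 0 of them passed a nominal p in limma.

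Sulfatases remove sulfate in lysosomes or at the cell surface. Of 13 genes of sulfatases and their activators, 1 was higher and 0 were lower at a nominal p (limma), and the median was 0.037. That one was Arsk, a lysosomal sulfatase, at 0.24 (SE 0.097, adjusted p = 0.665, limma, and exact permutation p = 0.0397), and it was no longer at a nominal p over the single samples alone or in 6 of 10 fits with 1 array left out. Sumf1, which activates sulfatases, was at 0.037 (SE 0.078). The 9 measured Slc4 transporters, a separate family of bicarbonate exchangers, had a median of -0.0018 and 0 past a nominal p in limma. Slc4a1, the anion exchanger of red cells, was at -0.14 (SE 0.071), and Slc4a2 was at -0.034 (SE 0.10). Among 13 genes whose products bind, phosphorylate or work beside Slc26 proteins, 0 passed a nominal p in limma and the median was -0.019. Cftr, the chloride channel that binds several Slc26 proteins in epithelia, lay in the range of the olfactory receptor probe sets at 0.030 (SE 0.070).

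Proteoglycan core proteins carry the sulfated chains. Of 19 measured, 10 were above 0, 2 were higher and 0 were lower at a nominal p (limma), and the median was 0.059. The share of all probe sets at a nominal p was 7.09%, in either direction. Vcan, the chondroitin sulfate proteoglycan versican, had log2 values of 7.90, 8.19, 8.35, 7.78 and 8.35 in VD(-) HSC recipients and 7.33, 7.67, 7.31, 7.72 and 7.21 in VD(+) HSC recipients. The groups of Vcan did not overlap, and its log2 fold change was 0.67 (SE 0.15, adjusted p = 0.233, limma, and exact permutation p = 0.00794). Bgn, or biglycan, of bone and connective tissue, was at 0.46 (SE 0.16, adjusted p = 0.586, limma, and exact permutation p = 0.0397), and it was no longer at a nominal p with the Y-linked covariate, without the arrays with Y-linked signal or over the single samples alone. Srgn, or serglycin, the main proteoglycan of blood cell granules, had a mean of 11.06 in both groups and a log2 fold change of -0.00031 (SE 0.078).

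**Figure D4:**
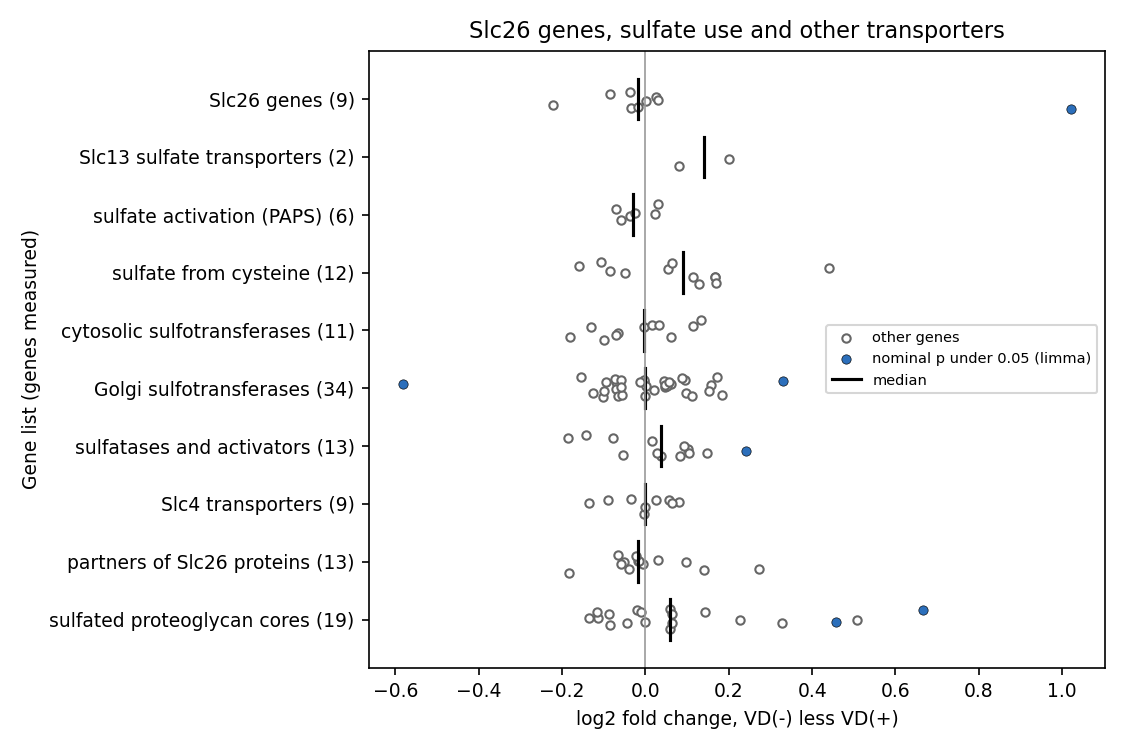
Log2 fold change, VD(-) less VD(+), of the 9 Slc26 genes and of the measured genes of 6 lists of sulfate use and 3 of other transporters and partners (number of genes in brackets), with black bars for the medians and filled points for a nominal p under 0.05 in limma. Slc26a1 stands at the far right at 1.02, Chst3 at the far left at -0.58, and the medians of the lists lie between -0.031 and 0.14.

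Markers of marrow cells were set beside these values. The mean over 9 monocyte and macrophage markers ranged from 7.28 to 7.63 in VD(-) HSC recipients and from 6.81 to 7.36 in VD(+) HSC recipients, with 9 of 9 genes above 0 and 4 higher at a nominal p, Cd68, Vsig4, Timd4 and Ccr2. Marrow stroma markers ranged from 6.53 to 7.08 in VD(-) and from 6.43 to 6.79 in VD(+), with 7 of 8 above 0 and 2 at a nominal p. B lineage markers ranged from 6.73 to 8.21 in VD(-) and from 7.30 to 7.79 in VD(+), with 2 of 8 above 0 and 2 lower at a nominal p. In VD(-), replicates 2 and 3 carried no Y-linked signal. Their stroma means, 6.53 and 6.55, lay inside the VD(+) range. Their monocyte and macrophage means were 7.38, just above the VD(+) range, and 7.28, inside it. Their B lineage means, 7.07 and 6.73, lay below all VD(+) arrays. Neutrophil markers lay at 11.47 to 11.86 in VD(-) and 11.54 to 11.76 in VD(+), with 0 at a nominal p. Erythroid markers lay at 9.82 to 10.11 in VD(-) and 9.88 to 10.03 in VD(+), with 1 of 5 higher at a nominal p. Of the markers measured, all neutrophil, monocyte and macrophage, B lineage, erythroid, megakaryocyte and stroma ones lay above the olfactory receptor range. Of the T and NK cell markers, 6 of 7 did. Some listed markers were not measured: 5 of 9 erythroid and 4 of 5 megakaryocyte markers were. Megakaryocyte markers lay at 9.28 to 9.52 in VD(-) and 9.26 to 9.87 in VD(+), and T and NK cell markers at 5.61 to 6.35 in VD(-) and 5.74 to 6.16 in VD(+). The ranges of the groups overlapped for all of these lists. None of their markers passed the adjusted test (limma), and 7.09% of all probe sets were at a nominal p under 0.05 (2520 of 35556). The liver and kidney markers, of the organs where Slc26a1 is best known, had means of 3.65 to 3.74 in VD(-) and 3.66 to 3.84 in VD(+). The part of the monocyte, macrophage and stroma markers in the values of Slc26a1, Vcan and Bgn was not tested.

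On the VD(-) side, 3 arrays, replicate 1 and both pools, carried signal of Y-linked genes, with means of 6.64, 6.80 and 5.31 over Kdm5d, Eif2s3y and Uty, while the other 7 arrays lay between 2.25 and 2.56. Y-linked signal was thus not balanced between the groups. Without these 3 arrays the log2 fold change of Slc26a1 was 0.90 (SE 0.11) and its adjusted p in limma was no longer under 0.05, and with Y-linked signal minus Xist added as a term of the fit it was 0.94. Slc26a2 had a log2 fold change of -0.31 (SE 0.11) without the 3 arrays. The difference of Slc26a1 was thus 0.90 in place of 1.02 with VD(-) replicates 2 and 3 alone against all VD(+) arrays. The arrays left out include both VD(-) pools, which had the highest values of Slc26a1 (6.08 and 6.08). Replicate 1, with Y-linked signal, had 5.85, against 5.86 and 5.76 in replicates 2 and 3. Y-linked signal and pooling are not separated by this subset.

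The genes whose values were closest to those of Slc26a1 over the 10 arrays were found among 17028 genes, by the mean absolute difference after each gene was centred on its own mean. They were Lmbr1, a membrane protein whose gene holds a limb enhancer, at a distance of 0.13, Stard4, a cholesterol carrier, at 0.20, Rarres2, or chemerin, at 0.21, and Zfp326, a zinc finger protein, and Rps3a1, a ribosomal protein, at 0.22 each. Lmbr1 had log2 values of 5.50, 5.01, 5.15, 5.04 and 5.25 in VD(-) HSC recipients and 4.28, 4.17, 4.10, 4.18 and 4.35 in VD(+) HSC recipients. Both genes were higher on every VD(-) array than on any VD(+) array, but within VD(-) Lmbr1 was highest on replicate 1 and Slc26a1 in the pools. The log2 fold changes were 0.98 for Lmbr1, 0.66 for Stard4, 0.79 for Rarres2, 0.65 for Zfp326 and 0.91 for Rps3a1, as a description, since the likeness to Slc26a1 selects genes that differ in the same way.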

How the data were processed

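RNA of recipient BM was amplified to cDNA, labelled with biotin and hybridised, 1 array per sample. The study's methods name a miRNA array, while the deposited probe sets are those of a mouse gene array, as which they were read here. The authors made the deposited log2 values in Partek with RMA, which corrects background, brings the arrays to 1 distribution and summarises probes, so differences in total RNA are removed. The sources used here give neither a genome build nor filters. Array medians lay between 4.74 and 4.80, and the number of arrays limits the precision. All 10 columns were used, and 0 other value columns were present. Of 35556 probe sets, 21789 list 1 gene, 1621 several and 12146 none.

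Groups came from the sample labels. All probe sets were fitted together with limma 3.58.1 (R 4.3.3), lmFit and eBayes, two-sided, with Benjamini-Hochberg adjustment over all of them. The fit was tested on simulated data with 5 arrays against 5. At an adjusted p it found 0% of changes of 0.25, 28% of changes of 0.5, 82% of changes of 1 and 96% of changes of 2. A small difference that did not pass the adjusted test is thus not evidence of no change. Alternatives were the methods' t-test, other scaling, filters, weights and covariates, subsets of arrays and each array left out. The text names all members, genes fixed by role, up to 3 genes per list with the smallest nominal p under 0.05, neighbours within 50 kb (those of Slc26a1 and the closest of the others) and the 5 genes closest to Slc26a1. Members, lists and rules were chosen with earlier results of these data known. Gene positions and promoters are from RefSeq, GRCm38.p6, and promoters of Slc26a2, Slc26a7 and Slc26a11 were not used here.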

Additional observations from a re-analysis of the deposited data

Results flagged for a closer look

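Over 34 genes and 68 groups of 5 arrays, 6 values stood far from the other 4 of their group by Dixon's criterion, and chance gives about 1 in 20 groups. None of the 9 Slc26 members was among them. Bgn had 8.05 on VD(-) replicate 2, against 8.61 to 8.79 on the other VD(-) arrays, and Slc4a2 had 5.47 on VD(-) replicate 1, against 5.61 to 5.65. In VD(+) HSC recipients, Chst1 had 4.10 on replicate 3, against 4.52 to 4.60. Papss1 had 5.06 on VD(+) replicate 1, against 4.75 to 4.84, and Slc35b2 had 5.71 on VD(+) replicate 2, against 5.23 to 5.33. Cftr had 2.18 on VD(+) replicate 3, against 1.98 to 2.00, within the range of the olfactory receptor probe sets.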

How the results depend on the processing

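Of 23 alternatives, 10 left out 1 array each and 13 changed another choice. The log2 fold change of Slc26a1 stayed between 0.90 and 1.15 (0.98 to 1.07 with 1 array left out), and that of Slc26a2 between -0.33 and -0.15. Of 202 values of members under alternatives, 201 were within 1 SD of the value reported, and the exception was Slc26a6 over the pools alone, at -0.18. The number of members past an adjusted p was 0 over the single samples alone, over the pools alone, without the 3 arrays with Y-linked signal and with the replicate block, and 1 under the other alternatives. Same-numbered samples had correlations of -0.052 to 0.061 in their deviations. The labels do not say whether same-numbered samples were handled together. These correlations over many probe sets cannot decide it, so the replicate block is kept among the alternatives. At a nominal p, 2 members, Slc26a1 and Slc26a2, were called in the brighter part of the probe sets, with cyclic loess, with the Y-linked covariate, without the arrays with Y-linked signal, with probe sets averaged per gene and over 1-gene probe sets alone. With 1 array left out this number was 1 to 2, and it was 2 without VD(-) replicate 1, VD(+) replicate 1 or VD(+) pool 2. The number of genes of the 9 lists higher at a nominal p was 8 with the Y-linked covariate and without VD(+) replicate 1, against 4 reported, and not the same genes: of Chst1, Arsk, Vcan and Bgn, only Arsk and Vcan were among the 8 with the covariate. Over 14 alternatives, Vcan and Chst3 each lost their nominal p in 1, the pools alone, Chst1 and Bgn in 3 each and Arsk in 7. The number lower was 2 in place of 1 under 7 alternatives. Idua was no longer at a nominal p over the single samples alone, over the pools alone, with the Y-linked covariate or without those 3 arrays. The causes were not tested. The 3 members in the olfactory receptor range cannot be told from unexpressed genes by level, and 5 arrays a group limit every interval.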
